A study of Mus musculus with 2 samples.

Results

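Preleptotene to leptotene cells are the male germ cells that have just left mitosis, copy their DNA for the last time before the meiotic divisions and begin to build chromosome axes. They were picked from single-cell RNA profiles of whole mouse testis by their own transcripts. A cell barcode was taken when it had at least 1000 detected genes, at least 4 transcript molecules (unique molecular identifiers, UMIs) of Stra8, Meiosin and Prdm9 together, and at least 0.15% of its UMIs from Sycp1, Sycp3 and Hormad1. It also had to carry fewer than 10 UMIs of the pachytene gene Piwil1, under 2% of its UMIs from the protamine genes Prm1 and Prm2, and under 0.6% from 6 Sertoli cell genes. In all, 340 of 12533 barcodes met this rule, 289 in the KO library and 51 in the WT library, and these are called members in the plots. The KO library came from Rad21l-/- testis, which lacks the meiotic cohesin subunit RAD21L, and the WT library from Rad21l+/+ testis. Both genotypes were mice at 55 days post-partum. There was 1 library per genotype, the labels do not say how many animals went into each or what the mutant allele removes, and no difference between genotypes therefore has a replicate check. The intervals given below cover counting error alone, at 95%, and no test between genotypes was made.

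Entry into meiosis in mice is triggered by retinoic acid, which turns on STRA8 and, with it, MEIOSIN; together these proteins activate replication and meiotic genes in spermatogonia that were until then dividing by mitosis. The replicated sister chromatids are held by cohesin rings, in which the meiosis-specific subunits SMC1B, STAG3, REC8 and RAD21L replace or join the mitotic ones, and the rings anchor the axis proteins SYCP2, SYCP3 and HORMAD1. SPO11 then cuts DNA at sites marked by the histone methyltransferase PRDM9, and the recombinase DMC1 acts early in repair, which accompanies pairing of the homologous chromosomes.

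Some genes of this programme share a DNA sequence near their start. Among 290 genes that stood higher in the preleptotene to leptotene cells than in spermatogonial cells in both libraries, 247 had a promoter in the RefSeq table used here (mouse build GRCm38.p6, 250 bases before to 50 after each start site), matched by symbol because the counts were made on GRCm39. The sequence CNCCTCAG, known in mouse as the motif at sites bound by STRA8 and MEIOSIN, or its reverse complement CTGAGGNG, was found in 61 of these 247, or 24.7%. It was found in 12.7% of the 5719 such genes measured in these cells, in 9.16% of all 26527 genes in the table and in 4.93% of 203 genes that stood lower than in spermatogonial cells in both libraries. A gene counted once if the window of any of its listed start sites held a match on either strand, and the windows are written 5′ to 3′ along the gene. The promoters of 4 of these genes are shown, chosen because they hold a match and the genes are described below. They are the recombination helicase gene Hfm1, which has 2 matches, and M1ap, Spdya and Prss50, which have 1 each. Other genes described below had no match in their windows, among them Fgf11, Terb1, Rbpms2, Sycp2, Dmc1 and H2ac1. Capitals mark the match.
Hfm1 (chr5:106925841-106926140, - strand): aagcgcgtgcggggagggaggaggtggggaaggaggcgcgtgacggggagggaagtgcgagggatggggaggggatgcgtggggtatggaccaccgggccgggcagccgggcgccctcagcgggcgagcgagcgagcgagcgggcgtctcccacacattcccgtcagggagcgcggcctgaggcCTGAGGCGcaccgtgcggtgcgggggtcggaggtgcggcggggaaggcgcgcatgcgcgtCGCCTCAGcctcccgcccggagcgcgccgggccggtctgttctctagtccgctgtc
M1ap (chr6:82946672-82946971, + strand): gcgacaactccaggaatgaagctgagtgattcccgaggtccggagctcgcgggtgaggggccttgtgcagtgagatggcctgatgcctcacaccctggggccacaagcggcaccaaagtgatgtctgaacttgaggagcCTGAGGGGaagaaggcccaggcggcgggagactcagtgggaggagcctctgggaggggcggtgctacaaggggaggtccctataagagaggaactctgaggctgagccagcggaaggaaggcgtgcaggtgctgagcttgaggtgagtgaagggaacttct
Spdya (chr17:71551811-71552110, + strand): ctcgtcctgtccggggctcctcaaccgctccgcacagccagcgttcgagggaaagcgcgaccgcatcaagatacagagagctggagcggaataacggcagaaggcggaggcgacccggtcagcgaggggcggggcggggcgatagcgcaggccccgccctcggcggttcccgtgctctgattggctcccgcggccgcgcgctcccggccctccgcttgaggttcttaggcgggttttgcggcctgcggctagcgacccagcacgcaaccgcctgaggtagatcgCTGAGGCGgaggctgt
Prss50 (chr9:110857714-110858013, + strand): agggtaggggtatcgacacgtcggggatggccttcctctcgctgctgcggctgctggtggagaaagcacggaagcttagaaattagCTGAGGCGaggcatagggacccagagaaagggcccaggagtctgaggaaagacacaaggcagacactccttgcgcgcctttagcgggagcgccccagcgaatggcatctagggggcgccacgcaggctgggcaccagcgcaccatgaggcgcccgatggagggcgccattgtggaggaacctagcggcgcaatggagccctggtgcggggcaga
The window of Stra8 itself held no match, which says only that these letters are not in that stretch. A match is a run of letters and not a measured binding site.

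**Figure D1:**
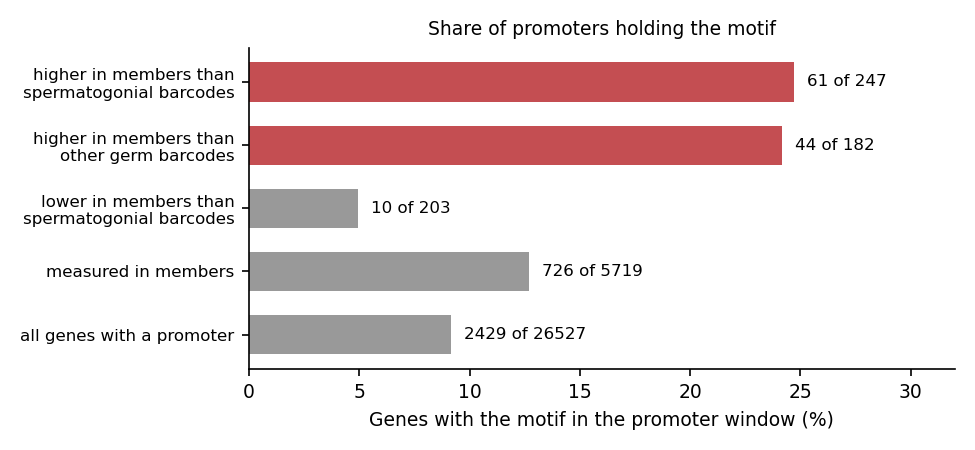
Percentage of genes whose promoter window holds CNCCTCAG on either strand, for genes higher in preleptotene to leptotene cells than in spermatogonial or other germ cells in both libraries (24.7% and 24.2%), genes lower than in spermatogonial cells (4.93%), genes measured in these cells (12.7%) and all genes in the promoter table (9.16%). Counts of genes stand beside the bars.

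The 2 libraries held 28001992 UMIs in 7118 KO barcodes and 33096309 UMIs in 5415 WT barcodes. Sertoli markers took 1.34% of all UMIs in KO and 0.0842% in WT, and elongating spermatid markers 0.000507% in KO and 7.20% in WT. The chosen cells carried some of each: Sertoli markers took 0.287% of UMIs in KO cells (0.0519 to 1.14% by cell) and 0.0405% in WT cells (0 to 0.143%), with all 18 markers detected in KO and 14 of 18 in WT, where Amh, Gata4, Dhh and Fshr were at 0. Elongating spermatid markers took 0.000745% in KO cells and 1.28% in WT cells, beside 1.47% in WT somatic barcodes, and Prm1, Prm2, Tnp2, Odf1 and Akap4 were at 0 in KO cells. In total 14 barcode sequences occurred in both libraries, 1 of them in a chosen WT cell and none in a chosen KO cell. Every gene level below is given in CPM (counts per 1000000 UMIs), with the UMIs of a group of cells summed first.

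The chosen cells were 6.22% (5.54 to 6.95) of the 4646 KO barcodes with at least 1000 genes, against 1.22% (0.908 to 1.60) of the 4186 WT barcodes. Among germ barcodes, defined by at least 2 UMIs of Dazl and Ddx4, they were 16.9% (15.1 to 18.8) of 1683 in KO and 2.99% (2.22 to 3.92) of 1674 in WT. These are shares of what each suspension contained, and a larger number of these cells cannot be told apart from a smaller number of others. The median cell had 4009 UMIs and 2304 genes in KO and 4589 UMIs and 2624 genes in WT. UMIs of the 3 entry genes ran from 4 to 36 with a median of 9 in KO, and from 4 to 36 with a median of 12 in WT. The share of the 3 axis genes ran from 0.152% to 0.990% with a median of 0.290% in KO, and from 0.155% to 0.671% with a median of 0.304% in WT. Summed, they gave 1342427 UMIs in KO and 254022 in WT, so KO levels carry less counting error than WT levels.

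The rule sits on a continuum. Just below the limit of 4 UMIs, 44 KO and 5 WT barcodes had 3 UMIs of Stra8, Meiosin and Prdm9 and met every other condition, while 39 KO and 2 WT cells had exactly 4. Just below the axis limit, 63 KO and 9 WT barcodes had 0.10 to 0.15% of their UMIs from the 3 axis genes, against 63 KO and 9 WT cells at 0.15 to 0.20%. The plot of both measures by barcode shows no gap at either limit.

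**Figure D2:**
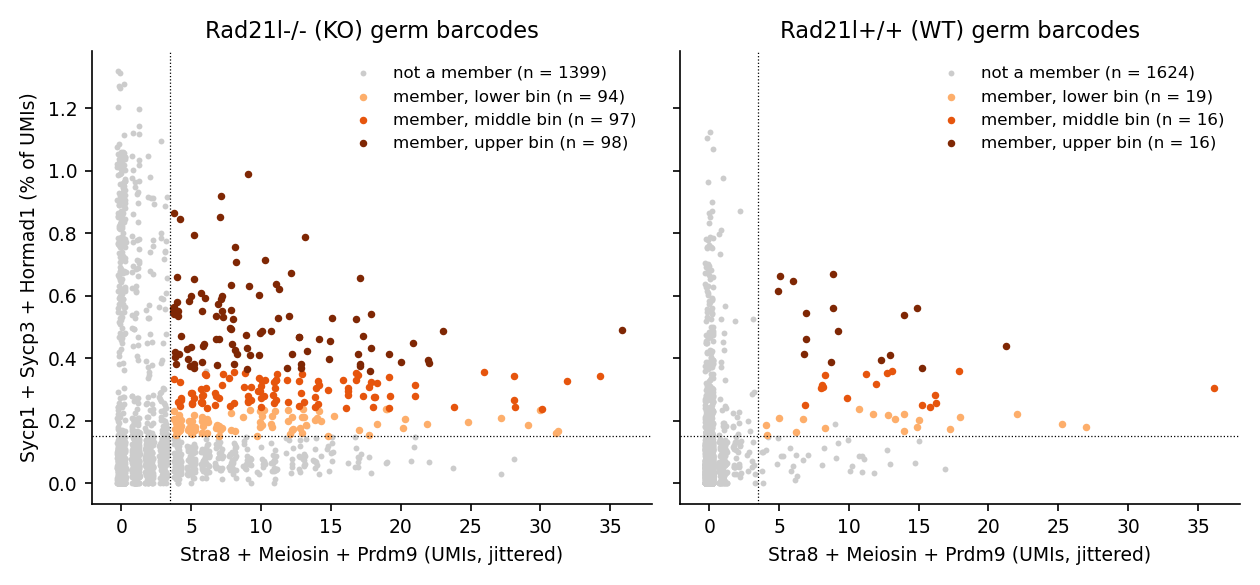
UMIs of Stra8, Meiosin and Prdm9 together (horizontal, jittered) against the percentage of UMIs from Sycp1, Sycp3 and Hormad1 (vertical) in germ barcodes, KO on the left and WT on the right. Grey points are germ barcodes outside the rule (1399 KO, 1624 WT), coloured points all chosen cells in 3 bins of axis share, and dotted lines the limits of the rule; the clouds run on across both lines.

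The label was checked against its defining markers, most of which the rule itself used. Stra8 had at least 1 UMI in 285 of 289 KO cells and 50 of 51 WT cells, Meiosin in 237 and 46, Prdm9 in 227 and 42, and Sycp3 in 285 and 51. All of Stra8, Meiosin and Prdm9 were detected in 195 KO and 37 WT cells. Summed levels of the genes that chose the cells are a description: Stra8 reached 1372 CPM (1310 to 1436) in KO and 1398 CPM (1256 to 1551) in WT, Meiosin 485 CPM in KO and 587 CPM in WT, and Prdm9 461 CPM in KO and 488 CPM in WT. In somatic barcodes Stra8 stood at 12.5 CPM in KO and 5.30 CPM in WT, and 6.95% of 2460 KO and 2.25% of 89 WT somatic barcodes had a UMI of it. With every cell thinned to 2000 UMIs, which leaves out 6 shallower KO cells, Stra8 was still seen in 87.6% of KO and 80.4% of WT cells, against 2.69% of KO somatic barcodes and 0 of the 42 WT somatic barcodes deep enough, with an exact upper limit of 8.41%. The list of 17 differentiating spermatogonia genes, outside the rule for the chosen cells, was not lower there than in spermatogonial cells. It took 0.228% of UMIs in KO and 0.224% in WT cells, against 0.179% in KO and 0.169% in WT spermatogonial cells. That share rests largely on Tex101, which is also listed here for zygotene and pachytene. The list had 3055 UMIs in KO and 570 in WT cells, and Tex101 alone had 1972 in both together. Kit, Sohlh1, Dmrt1, Sall4 and Uhrf1 of the list also helped to choose the spermatogonial cells. Undifferentiated spermatogonia are earlier germ cells. Zbtb16 and Sall4 among their markers helped to choose the spermatogonial cells, so a contrast with those cells follows in part from that choice. All markers of the list are outside the rule for the chosen cells. Gfra1 and Egr4, 2 of them, had 0 UMIs in the chosen cells of both libraries, and the whole list of 18 such markers took 0.0187% of UMIs in KO cells and 0.00787% in WT cells, against 0.125% in KO and 0.0755% in WT spermatogonial cells and 0.0936% in KO and 0.0733% in WT somatic barcodes.

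Against all other germ barcodes of its own library, each group was placed with very different neighbours: median Piwil1 was 0 UMIs in other KO germ barcodes and 1 UMI in other WT germ barcodes, which reached 94 UMIs. A gene was called past 2-fold when it had at least 30 UMIs in the higher group and, after 10% of its library-wide CPM had been taken off there as room for free RNA, still stood at least 2 times higher. On that rule 630 of 12862 genes stood higher in KO cells than in other KO germ barcodes (4.90%) and 1868 lower (14.5%). In WT, 896 of 15990 stood higher (5.60%) and 1899 lower (11.9%). The rule chose the cells from these same counts, so nothing is read from these shares. Of the genes higher, 221 were shared, 35.1% of the KO and 24.7% of the WT set. Among them were Rbpms2, an RNA-binding protein gene, with 165 CPM in KO cells against 22.3 CPM in other KO germ barcodes, and 150 CPM in WT cells against 2.40 CPM in other WT germ barcodes. Prss50, a testis serine protease gene, had 508 CPM in KO cells against 108 CPM in other KO germ barcodes, and 476 CPM in WT cells against 9.37 CPM in other WT germ barcodes. Fgf11, which encodes a fibroblast growth factor homologous protein, had 183 CPM in KO cells against 16.6 CPM in other KO germ barcodes, and 138 CPM in WT cells against 4.80 CPM in other WT germ barcodes.

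A closer neighbour on the earlier side is the spermatogonial barcode, which carries Kit, Sohlh1, Dmrt1, Zbtb16, Sall4 or Uhrf1 and little of the entry and axis genes. This group (412 KO and 114 WT barcodes) was defined after the values were seen, because a first rule for earlier germ cells had gathered mostly late spermatocytes in WT. Both groups were cut from the same counts, so what follows describes them and tests nothing. Relative to it, 836 of 9335 genes stood past 2-fold higher in the KO cells (8.96%) and 1157 lower (12.4%), and 411 of 4907 higher (8.38%) and 687 lower (14.0%) in the WT cells. The 290 shared higher genes were 34.7% of the KO and 70.6% of the WT set, and the 257 shared lower genes 22.2% of the KO and 37.4% of the WT set.

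Genes of meiotic chromosomes were among those that stood higher. In counts over gene lists below, a gene was measured when both groups together had at least 20 UMIs, and past 2-fold was counted with no room for free RNA; by that rule 10.5% of all measured genes stood higher and 17.3% lower in KO cells than in KO spermatogonial cells, and 11.9% higher and 15.9% lower in WT. Of 13 measured synaptonemal complex and axis genes, 11 stood higher in KO cells and 11 in WT cells, the 3 genes of the rule among them, and 1 stood lower in WT. Sycp2, an axis protein gene outside the rule, had 1037 CPM in KO cells against 161 CPM in KO spermatogonial cells, and 980 CPM in WT cells against 158 CPM in WT spermatogonial cells. Of the break formation genes 9 of 14 stood higher in KO cells and 6 of 10 in WT cells, and none stood lower in either library. Mei1, needed for breaks, had 75.2 CPM in KO cells against 16.0 CPM in KO spermatogonial cells, and 74.8 CPM in WT cells against 21.0 CPM in WT spermatogonial cells. Telomere attachment genes, whose products tie chromosome ends to the nuclear envelope, stood higher in 6 and lower in 1 of 13 measured for KO, and higher in 5 and lower in 1 of 10 for WT. Terb1, which encodes a telomere-binding adaptor, had 122 CPM in KO cells against 6.73 CPM in KO spermatogonial cells, and 169 CPM in WT cells against 21.0 CPM in WT spermatogonial cells.

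Several genes of the shared set act at other steps of meiosis. M1ap, a gene needed for male meiosis in mouse, had 329 CPM in KO cells and 319 CPM in WT cells, against 47.9 CPM in KO and 61.3 CPM in WT spermatogonial cells. Spdya, which encodes the cyclin-dependent kinase activator Speedy A found at telomeres, had 166 CPM in KO cells and 150 CPM in WT cells, against 10.1 CPM in KO and 40.3 CPM in WT spermatogonial cells. Fbxo47, an F-box gene, stood at 190 CPM in KO cells and 157 CPM in WT cells, against 10.9 CPM in KO and 25.8 CPM in WT spermatogonial cells. Pbx3, a homeobox gene, stood at 189 CPM in KO cells and 142 CPM in WT cells, against 7.99 CPM in KO and 4.84 CPM in WT spermatogonial cells. For each of these 4 genes the KO and WT levels in the chosen cells had overlapping counting intervals; that both libraries stood above spermatogonial cells follows from the choice of the set.

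Of the germline and linker histone genes, 8 of 15 measured stood higher and 3 lower in KO cells, and 7 of 14 higher and 3 lower in WT cells. The germline and linker histone list took 0.886% of UMIs in KO cells and 0.977% in WT cells, against 0.455% in KO and 0.447% in WT spermatogonial cells. H2ac1, the testis H2A gene, was the most abundant, with 2478 CPM (2394 to 2563) in KO and 3051 CPM (2840 to 3273) in WT, against 485 CPM in KO and 542 CPM in WT spermatogonial cells. The linker histone gene H1f1 had 1535 CPM in KO and 1736 CPM in WT, against 552 CPM in KO and 619 CPM in WT spermatogonial cells. H3f4, the testis H3 gene, had 501 CPM in KO and 665 CPM in WT, against 126 CPM in KO and 139 CPM in WT spermatogonial cells. These histones were low in somatic barcodes, at 12.5 CPM in KO and 23.8 CPM in WT for H2ac1.

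Genes that stood lower than in spermatogonial cells included stem cell and division genes. Ret, the GDNF receptor kinase gene, had 1.49 CPM in KO cells and 0 UMIs in WT cells, against 60.5 CPM in KO and 19.4 CPM in WT spermatogonial cells. Zbtb16, which encodes the self-renewal factor PLZF and is one of the genes that defined the spermatogonial cells, had 17.9 CPM in KO cells and 23.6 CPM in WT cells, against 309 CPM in KO and 231 CPM in WT spermatogonial cells. Of the mitotic division genes, 12 of 30 measured stood lower and 3 higher in KO cells, and 12 of 28 lower and 1 higher in WT cells. The summed share of the list was 0.659% in KO cells against 0.671% in KO spermatogonial cells, and 0.570% in WT cells against 0.646% in WT spermatogonial cells. It was 0.822% in the upper KO bin and 0.770% in the upper WT bin of the cells, as split by axis share below. Top2a, a topoisomerase gene of both S phase and chromosome condensation, went the other way, with 1740 CPM in KO cells and 1496 CPM in WT cells against 857 CPM in KO and 790 CPM in WT spermatogonial cells.

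To follow the cells along meiotic entry, they were split into 3 bins of equal size by the share of Sycp1, Sycp3 and Hormad1, cut at 0.239% and 0.360% over both libraries together. The bins held 94, 97 and 98 KO cells and 19, 16 and 16 WT cells. They are ranges of a score: 33 KO and 8 WT cells lay within 0.02 percentage points of the lower cut, and 22 KO and 6 WT cells of the upper cut. Later prophase barcodes (362 KO, 106 WT) had the same axis minimum with at most 3 UMIs of Stra8, Meiosin and Prdm9.

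Transcripts of the meiotic machinery stood highest in the upper bin. Break formation genes took 0.262, 0.335 and 0.439% of UMIs in the lower, middle and upper bin of KO, and 0.241, 0.311 and 0.424% in WT, then 0.181% in KO and 0.129% in WT later prophase. Cohesin genes took 0.608, 0.748 and 0.850% across the KO bins and 0.677, 0.664 and 0.875% across the WT bins, then 0.420% in KO and 0.351% in WT later prophase. Axis genes other than the 3 of the rule took 0.232, 0.327 and 0.479% across the KO bins and 0.245, 0.319 and 0.421% across the WT bins. In both libraries the upper bin was highest for these 3 lists.

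**Figure D3:**
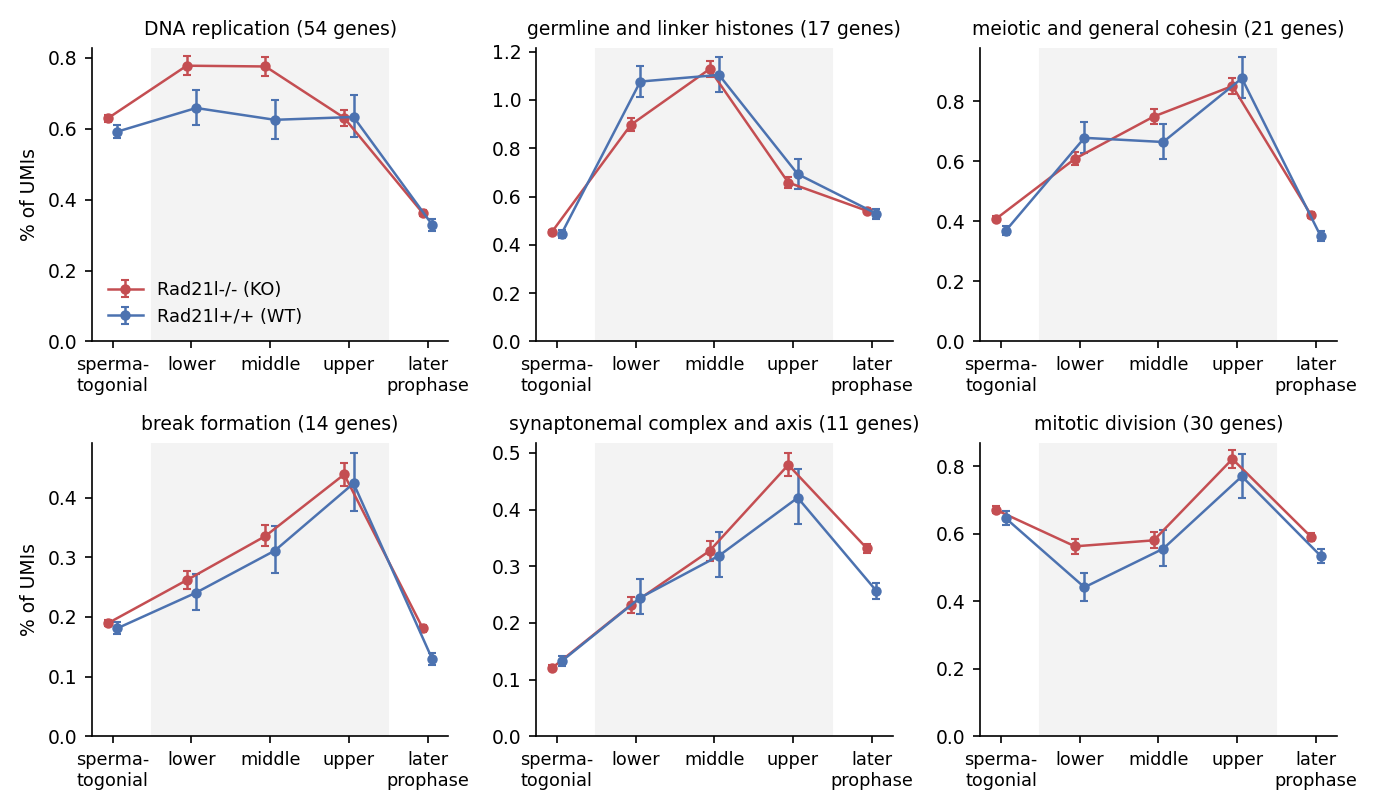
Percentage of UMIs taken by 6 gene lists in spermatogonial barcodes, in the lower, middle and upper bins of preleptotene to leptotene cells (shaded) and in later prophase barcodes, KO in red and WT in blue, with 95% binomial intervals for counting error. Cohesin, break formation and axis lists were highest in the upper bin of both libraries, and the replication list stood at 0.362% in KO and 0.329% in WT later prophase.

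DNA replication genes were not highest there. The list of 54 genes took 0.777% (0.752 to 0.803), 0.775% (0.749 to 0.802) and 0.630% (0.608 to 0.653) of UMIs in the lower, middle and upper bin of KO. In WT it took 0.658% (0.610 to 0.709), 0.625% (0.571 to 0.682) and 0.633% (0.576 to 0.694). The libraries thus stood apart by more than counting error in the lower and middle bins and within it in the upper bin. In later prophase the list took 0.362% in KO and 0.329% in WT, and 34 of 54 measured genes in KO and 22 of 39 in WT stood more than 2-fold below the chosen cells, where 10.2% of all measured KO genes and 13.5% of WT genes did. Lig1, the replicative DNA ligase gene, had 547, 544 and 381 CPM across the KO bins and 456, 577 and 533 CPM across the WT bins, and 132 CPM in KO and 133 CPM in WT later prophase. Ccne2, an S-phase cyclin gene, had 414, 503 and 332 CPM across the KO bins and 456, 565 and 463 CPM across the WT bins, and 121 CPM in KO and 108 CPM in WT later prophase.

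Single genes differed across the bins in both directions. With 30 UMIs in the higher bin and 10% room for free RNA, 280 of 4242 genes stood higher in the upper than in the lower KO bin (6.60%) and 279 lower (6.58%). In WT only 629 genes had enough UMIs for this, and no count is given. Hfm1 had 55.4, 171 and 390 CPM across the KO bins and 116, 138 and 365 CPM across the WT bins. Dmc1, the meiotic recombinase gene, had 126, 282 and 436 CPM across the KO bins and 165, 263 and 379 CPM across the WT bins. Spata22 and Meiob, whose products bind single-stranded DNA together, had 100 and 109 CPM in the upper KO bin, against 13.3 and 11.1 CPM in the lower KO bin. In WT the upper bin had 98.2 CPM of Spata22 and 56.1 CPM of Meiob, against 19.4 CPM and 0 UMIs in the lower bin. Spo11 itself had 53.2 CPM (25 UMIs) in the upper and 4.43 CPM (2 UMIs) in the lower KO bin, and in WT 98.2 CPM (7 UMIs) in the upper and 0 UMIs in the lower bin. Hfm1 and Dmc1 were thus highest in the upper bin of both libraries. Spata22, Meiob and Spo11 stood higher in the upper than in the lower bin of both, but on few WT UMIs. A UMI of Spo11 was seen in 11.8% of WT cells and in 6.74% of WT somatic barcodes.

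Some single genes stood lowest in the upper bin. The list of 17 differentiating spermatogonia genes, which holds Kit but rests largely on Tex101 in UMIs, differed little across the bins. It took 0.235, 0.234 and 0.214% of UMIs across the KO bins and 0.226, 0.228 and 0.217% across the WT bins. Kit, the receptor of differentiating spermatogonia, had 179, 109 and 44.7 CPM across the KO bins and 194, 263 and 56.1 CPM across the WT bins. A UMI of Kit was seen in 31.5% of KO cells and 23.8% of KO somatic barcodes. In WT it was seen in 47.1% of the cells and 8.99% of somatic barcodes. The part of free RNA in the Kit values was not tested. Rec8, the kleisin that holds sister chromatids through meiosis, had 95.2, 73.6 and 14.9 CPM across the KO bins (43, 31 and 7 UMIs). WT held 10, 2 and 4 UMIs of Rec8, too few to order. Dnmt1, the maintenance DNA methyltransferase gene, had 352, 318 and 149 CPM across the KO bins and 330, 113 and 84.2 CPM across the WT bins. H2ac1 was highest in the middle bin, within counting error of the lower bin in WT, with 2397, 3492 and 1646 CPM in KO and 3387, 3676 and 1866 CPM in WT.

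Beyond the upper bin, in later prophase, 5 of 18 measured meiotic entry genes stood more than 2-fold below the chosen cells in KO and 5 of 13 in WT, with 1 higher in each library. Stra8, Meiosin and Prdm9 were among the lower genes in both libraries, and their fall follows from the rules that chose both groups. Over all measured genes 10.2% in KO and 13.5% in WT stood lower. The entry list without the genes of the rule took 0.364% of UMIs in KO and 0.30% in WT later prophase, against 0.399% in the chosen KO cells and 0.351% in the chosen WT cells. Stra8, part of the rule for both groups, had 91.3 CPM in KO and 23.3 CPM in WT later prophase. Fgf11, outside the rule, had 12.5 CPM in KO and 6.35 CPM in WT later prophase, and Mei1 9.64 CPM in KO and 8.47 CPM in WT. Gml, a GPI-anchored protein gene, had 239 CPM in KO and 294 CPM in WT later prophase, against 12.7 CPM in the chosen KO cells and 7.87 CPM in the chosen WT cells. Cks2, a cyclin-dependent kinase subunit gene needed for meiosis in mouse, had 509 CPM in KO and 506 CPM in WT later prophase, against 87.2 CPM in the chosen KO cells and 19.7 CPM in the chosen WT cells. By the rule with 10% room, 829 of 8195 genes stood higher in KO later prophase than in the chosen cells (10.1%) and 675 lower (8.24%), and 459 of 4005 higher (11.5%) and 427 lower (10.7%) in WT.

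The comparison of the genotypes starts with the targeted gene. Rad21l had 44 UMIs, or 32.8 CPM (23.8 to 44.0), in KO cells and 38 UMIs, or 150 CPM (106 to 205), in WT cells, a log2 ratio of -2.19 (-2.85 to -1.52). A UMI of it was seen in 13.5% of KO and 47.1% of WT cells, in 7.07% of KO and 29.4% of WT cells after thinning, and in 0.203% of KO and 0 of 89 WT somatic barcodes, with an exact upper limit of 4.06%. Rad21l was thus lower in KO cells but not absent, and whether its remaining counts come from a part of the gene that the allele keeps was not tested. In spermatogonial cells it had 6.73 CPM in KO and 8.06 CPM in WT, and in later prophase 5.67 CPM in KO and 12.7 CPM in WT, so the chosen cells hold its highest level of the 3 groups in each library.

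Of the other cohesin genes, Smc1b and Stag3 had CPM within counting error of each other in the 2 libraries, with no shift removed. Rec8 and Rad21 rest on few WT counts. Smc1b had 1906 CPM (1832 to 1981) in KO and 1882 CPM (1717 to 2058) in WT, a log2 ratio of 0.02 (-0.12 to 0.16). Stag3 had 521 CPM (484 to 562) in KO and 528 CPM (442 to 625) in WT, a log2 ratio of -0.02 (-0.29 to 0.26). Rec8, the other meiotic kleisin, had 60.3 CPM (47.9 to 75.0) in KO and 63.0 CPM (36.0 to 102) in WT, a log2 ratio of -0.06 (-0.85 to 0.81). For Rec8 that interval still allows close to a 2-fold difference either way. Rad21, the mitotic kleisin gene, had 97.6 CPM (131 UMIs) in KO and 47.2 CPM (12 UMIs) in WT, a log2 ratio of 1.05 (0.19 to 2.04). The median log2 ratio over all genes with at least 20 UMIs together was 0.18. These ratios are therefore read against that shift and not against 0. The Smc1b interval ends just below the shift, at 0.16, and the Rad21 interval begins just above it, at 0.19. The intervals of Stag3 and Rec8 include it.

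Most lists of the meiotic programme held few or no called genes. At the shares over all genes, given next, lists this short would also hold few calls. The zygotene and pachytene list held the most of them, and 1 of its 8 calls remained with 30% room for free RNA. With 30 UMIs in the higher group and 10% room for free RNA, 420 of 7020 genes stood past 2-fold higher in KO cells (5.98%) and 193 lower (2.75%). The minimum of 30 UMIs is 22.3 CPM in KO cells and 118 CPM in WT cells, so a gene is called lower in KO less readily than higher. Without the minimum 420 stood higher and 2289 lower. Counts under 3 were still set to 3 there, which eases lower calls because WT cells hold fewer UMIs. None of 13 meiotic entry genes, 13 axis genes, 13 break formation genes or 11 crossover maturation genes with enough UMIs was called in either direction. Stra8, Meiosin, Prdm9, Sycp1, Sycp3 and Hormad1 are among them and chose the cells in both libraries, so nothing is read from their likeness. Sycp2 had 1037 CPM in KO and 980 CPM in WT, Dmc1 284 CPM in KO and 256 CPM in WT, and Meioc, an RNA regulator of entry, 848 CPM in KO and 827 CPM in WT, each within counting error. Of 11 zygotene and pachytene genes 8 were called lower in KO, among them Hspa2, a spermatocyte chaperone gene, with 115 CPM in KO cells and 339 CPM in WT cells against 302 CPM in WT somatic barcodes, and 1 of the 8 calls (Adam3) remained with 30% room for free RNA. Single calls were made in the telomere attachment list (Lmnb1, higher in KO, of 12 genes), the piRNA list (Gtsf1, lower, of 14) and the histone list (H1f7, lower, of 13), and 3 of 20 meiotic RNA regulators were called (Nxf3 higher, Ybx2 and Pabpc2 lower). None of these calls in the telomere, piRNA, histone and RNA regulator lists remained with 30% room. Of 28 repair genes 2 were called, both higher in KO. Meiob had 66 UMIs in KO and 5 in WT, a log2 ratio of 1.32 (0.03 to 2.99), and Palb2, the BRCA2 partner gene, 40 UMIs in KO and 3 in WT, a log2 ratio of 1.34 (-0.32 to 3.67).

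**Figure D4:**
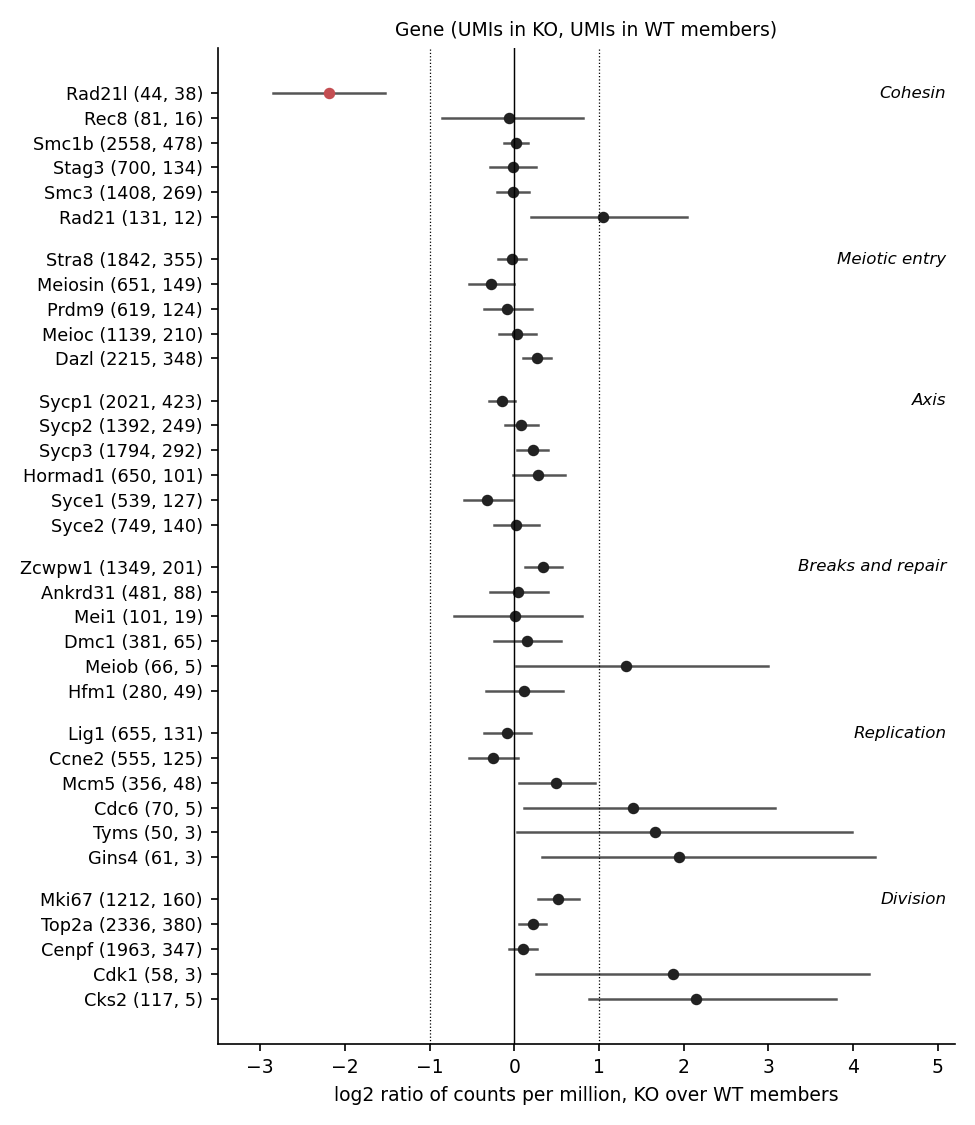
Log2 ratio of CPM, KO over WT preleptotene to leptotene cells, for named genes with their UMIs in KO and WT cells beside the name; bars are exact 95% counting intervals and dotted lines mark 2-fold. Rad21l (red) lies at -2.19, most entry, axis and recombination genes lie within 2-fold, and genes with few WT UMIs have wide intervals. Stra8, Meiosin, Prdm9, Sycp1, Sycp3 and Hormad1 chose the cells in both libraries, so their likeness follows in part from the rule.

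Of 53 replication genes, 5 were called higher in KO cells (Gins4, Cdc6, Cdt1, Pole2 and Tyms) and none lower, where 5.98% of all genes were called higher. With 30% room 4 were called, without Cdt1. The absence of lower calls is read with the higher CPM minimum that the WT depth sets. The list's median log2 ratio was 0.30, beside 0.18 over all measured genes. Cdc6, a licensing factor gene, had 52.1 CPM (70 UMIs) in KO and 19.7 CPM (5 UMIs) in WT, a log2 ratio of 1.41 (0.11 to 3.07). Mcm5, a subunit gene of the replicative helicase, had 265 CPM in KO and 189 CPM in WT, a log2 ratio of 0.49 (0.05 to 0.96), while Lig1 had 488 CPM in KO and 516 CPM in WT, a log2 ratio of -0.08 (-0.35 to 0.20). Rrm2, a ribonucleotide reductase gene, stood on the other side with 101 CPM in KO and 165 CPM in WT, a log2 ratio of -0.72 (-1.23 to -0.18). Of 25 division genes 3 were called higher (Cdk1, Cenpa and Ube2c) and none lower, and with 30% room 2 were called, without Ube2c. None of 8 cyclin genes, 13 p53 target and apoptosis genes or 19 germline genes silenced in somatic cells was called, and of 20 damage response genes Hus1, a checkpoint clamp subunit gene, was the 1 called, higher in KO with 40 UMIs in KO and 2 in WT. Mki67, a proliferation marker, had 903 CPM (853 to 955) in KO and 630 CPM (536 to 735) in WT, a log2 ratio of 0.52 (0.28 to 0.77).

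Most of the genes called between the genotypes were also present in the somatic barcodes of the library where they stood higher, and the part of free RNA in their calls was not tested gene by gene. The same share over all measured genes was not worked out, so the counts below are not read as a trait of the called genes. Of the 420 higher in KO, 307 had at least 50% of their KO level in KO somatic barcodes, and 11 of 14 Sertoli markers with enough UMIs were among them, led by Cst12 with 227 CPM in KO cells and 15.7 CPM in WT cells against 1650 CPM in KO somatic barcodes. Of the 193 lower in KO, 186 had at least 50% of their WT level in WT somatic barcodes. Prm1, Prm2, Tnp1 and other spermatid genes led them, all 10 elongating spermatid markers were included, and so was Ldhc, a spermatocyte lactate dehydrogenase gene, with 3.72 CPM in KO cells and 1165 CPM in WT cells against 1393 CPM in WT somatic barcodes. Dmrtb1, which encodes a transcription factor of the mitosis to meiosis switch in mouse, was also called, with 25.3 CPM in KO cells and 161 CPM in WT cells, but WT somatic barcodes had 156 CPM of it. The room was also set to 30% of the library level in place of 10%, a value chosen after the data were seen. With it 140 genes stood higher in KO (1.99%) and 50 lower (0.712%). No Sertoli marker remained among them, but the elongating spermatid markers Odf1 and Oaz3 and the round spermatid marker Tssk2 remained lower. Of the 140, 67 still had at least 50% of their KO level in KO somatic barcodes. Of the 50, 44 still had at least 50% of their WT level in WT somatic barcodes.

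Of those 140 genes, 7 had a counting interval that lay wholly past 2-fold, as did 49 of the 50 genes lower in KO. The 7 were Cenpa, P3h3, Commd7, Mdh2, Prmt3, Rnaset2b and Gm15564. In 79 of the 140 the WT cells had 3 UMIs or fewer. Cenpa, which encodes the centromeric histone, had 77 UMIs (57.4 CPM) in KO cells and 0 UMIs in WT cells. With the WT group set to a floor of 3 counts that is 4.86-fold higher. The counting interval of the Cenpa log2 ratio begins below that fold, at a log2 ratio of 1.95. P3h3, a prolyl hydroxylase gene, had 83 UMIs (61.8 CPM) in KO cells and 1 UMI in WT cells, and Mdh2, the mitochondrial malate dehydrogenase gene, 151 UMIs (112 CPM) in KO cells and 5 UMIs (19.7 CPM) in WT cells. Commd7 had 84 UMIs (62.6 CPM) in KO cells and 1 UMI in WT cells, against 53.4 CPM in KO somatic barcodes. On the lower side Rad21l and 1 other gene had under 20% of their WT level in WT somatic barcodes, and of these Rad21l alone had an interval wholly past 2-fold.

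Of these genes Cenpa, P3h3 and Mdh2 were also high in spermatogonial cells of both libraries, and their KO counts lay mostly in the lower bin. P3h3 had 280 CPM in KO spermatogonial cells, then 137, 19.0 and 27.7 CPM across the KO bins; in WT it had 253 CPM in spermatogonial cells and 0, 0 and 1 UMI across the bins. Cenpa had 198 CPM in KO spermatogonial cells, then 90.8, 49.9 and 31.9 CPM across the KO bins; in WT it had 147 CPM in spermatogonial cells and 0 UMIs in each bin. Mdh2 had 356 CPM in KO spermatogonial cells, then 175, 97.3 and 66.0 CPM across the KO bins; in WT it had 282 CPM in spermatogonial cells, then 48.5 CPM in the lower bin and 0 UMIs in the middle and upper bins. Rest, a repressor of neuronal genes, was likewise high in spermatogonial cells, with 368 CPM in KO spermatogonial cells and 111 CPM in the lower KO bin, and 245 CPM in WT spermatogonial cells and 9.71 CPM in the lower WT bin. Outside the germ cells, KO somatic barcodes had 4.62 CPM of Cenpa and 9.58 CPM of P3h3, but 174 CPM of Mdh2 and 226 CPM of Rest, both above their level in the chosen KO cells. The part of free RNA in the Mdh2 and Rest values was not tested. The lower WT bin held 103027 UMIs, so 1 UMI there is worth 9.71 CPM.

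Sex-linked genes were compared because male meiosis silences the X and Y chromosomes at pachytene, after the stage described here. X-linked genes took 3.17% (3.14 to 3.20) of UMIs in KO cells and 2.63% (2.57 to 2.69) in WT cells, beside 3.55% of all KO and 0.906% of all WT barcodes. Y-linked genes took 0.179% in KO cells and 0.115% in WT cells. The median X-linked gene stood 0.21 higher on the log2 scale than the median autosomal gene in KO over WT, with 233 of 333 X-linked genes above the autosomal median. Taking 20% of each library's profile off as free RNA moved that difference to 0.04. By bin it was 0.17, 0.22 and 0.10 from lower to upper.

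The X-linked shares of the libraries were further apart in later prophase, a group whose stages were not matched between the libraries. They were 2.96% in KO and 1.21% in WT, and the X-linked median stood 0.10 below the autosomal median for KO later prophase over the chosen KO cells, and 1.34 below it for WT later prophase over the chosen WT cells. Of the X-linked genes 195 of 436 in KO and 15 of 160 in WT lay above the autosomal median. Scml2, an X-linked Polycomb gene, had 542 CPM in the chosen KO cells and 425 CPM in the chosen WT cells, then 896 CPM in KO and 169 CPM in WT later prophase. Zfy2, a Y-linked zinc finger gene, had 14.9 CPM (20 UMIs) in the chosen KO cells and 1 UMI in the chosen WT cells, then 205 CPM in KO and 8.47 CPM in WT later prophase. Both genes were thus higher in KO than in WT later prophase, with levels in the chosen cells much closer for Scml2.

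**Figure D5:**
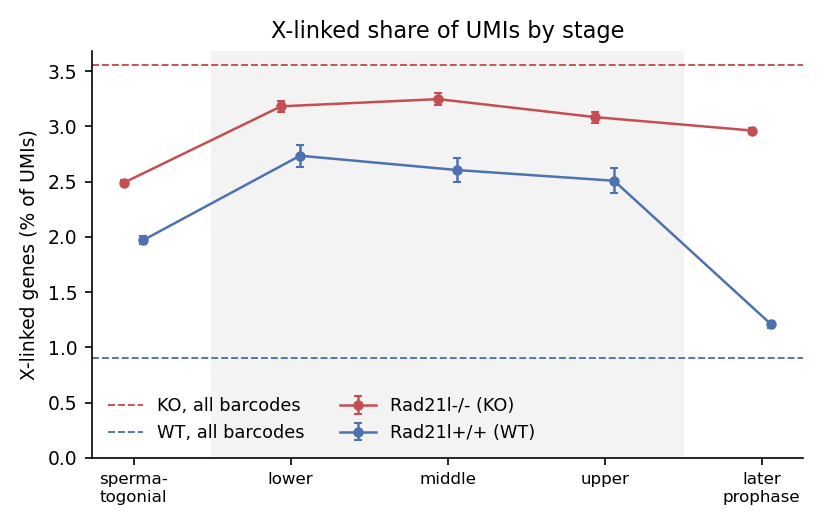
Percentage of UMIs from X-linked genes in spermatogonial barcodes, the 3 bins of preleptotene to leptotene cells (shaded) and later prophase barcodes, KO in red and WT in blue, with 95% binomial intervals for counting error; dashed lines give all barcodes of each library. The chosen cells stood at 3.17% in KO and 2.63% in WT, and later prophase at 2.96% in KO and 1.21% in WT.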

How the data were processed

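The authors deposited 1 matrix of raw UMI counts per library, over 41459 genes. Cell Ranger 6.1.2, Seurat 4.3 and the build GRCm39 are named in the submitters' processing notes. Groups of cells were taken by limits on marker counts, their counts were summed per library, and sums were scaled to CPM. With 1 library per genotype no test was made: intervals are exact Poisson (CPM), Clopper-Pearson (shares) and conditional binomial (ratios). Counts under 3 were set to 3 in ratios over many genes. Named genes were, per comparison, the first 12 in each direction by the ratio, with at least 30 UMIs in the higher group, plus the most abundant members of 8 lists; any other gene named was chosen after its values were seen. Mitochondrial mRNA genes of the list were not found in the matrices. No doublet caller was run; an alternative left out the 10% of cells with most UMIs. Chromosomes and promoters came from RefSeq tables of GRCm38.p6, matched by symbol. The members and the 28 gene lists were chosen with earlier results of these data known. The calls were tested on simulated data. Python 3.11.15, NumPy 2.4.6, SciPy 1.17.1, pandas 2.3.3 and Matplotlib 3.10.9 were used.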

Additional observations from a re-analysis of the deposited data

How the results depend on the processing

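No paired analysis was possible because there is 1 library per genotype, and for the same reason no replicate could be left out. Over 146 alternative values 117 stayed close to the reported one and 29 did not; the X-linked and replication medians kept their sign in each alternative run. With an axis minimum of 0.30% the cells numbered 140 in KO and 26 in WT, 64 genes stood lower in KO than in WT cells, and 382 stood higher in WT cells than in other WT germ barcodes. With the median gene set to no difference, 241 genes stood higher in KO than WT cells, 1092 higher and 1100 lower in KO cells than in other KO germ barcodes, 434 higher and 4821 lower in WT cells than in other WT germ barcodes, and the replication median was 0.12. Without the 10% of cells with most UMIs it was 0.43. Room for free RNA of 0, 20 and 30% gave 844, 230 and 140 genes higher in KO than WT cells, and 2844, 1215 and 813 lower in KO cells than in other KO germ barcodes; 30% room left 50 lower in KO than WT. Cells thinned to 2000 UMIs gave 57 genes lower in KO than WT, 277 higher and 1112 lower in WT cells than in other WT germ barcodes, and an X-linked minus autosomal median of 0.11. A minimum of 50 UMIs gave 84 lower in KO than WT and 469 higher in WT than other WT germ barcodes. With no minimum the balance of calls turned: 2289 stood lower and 420 higher in KO than WT, 5302 higher and 1899 lower in WT than other WT germ barcodes, and 2011 higher and 1868 lower in KO than other KO germ barcodes, and the X-linked difference was 0.29; it was 0.038 with 20% of each library profile taken off. Counting depth in WT limits every ratio between genotypes: 51 cells give 254022 UMIs.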
